A study of Mus musculus with 16 samples.

Results

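The 10 genes described here are survival and death genes of the BCL2 type: Bcl2, Bcl2l1, Mcl1, Bcl2l11, Bax, Bak1, Bid, Pmaip1, Cflar and Birc3. They were taken by symbol or synonym, and not by their values, from the probe annotation of mouse expression arrays, which held 24 probes for them among 41174. All 10 were among the 17466 genes and unnamed features that were bright enough to test. RNA came from adherent peritoneal cells of male mice on 16 single-colour arrays, 4 in each of 4 groups: fld cells with LPS at 100 ng/ml over 5 h, fld cells left untreated, control cells with the same LPS treatment, and control cells left untreated. All mice were of the strain BALB/cByJ-Lpin1fld/J. The fld (fatty liver dystrophy) mice are mutant in Lpin1, which encodes lipin-1, an enzyme that makes diacylglycerol from phosphatidate, and the controls were heterozygotes and so carry the allele too. Ages are not given in the labels. Cells adhered to plastic over 2 h, were washed, and were kept without serum during the treatment, in both the LPS and the untreated groups. The study asked how lipin-1 affects gene expression when LPS, a bacterial lipid, stimulates Toll-like receptor 4 (TLR4).

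Cells that die by apoptosis mostly open the outer membrane of their mitochondria. BAX and BAK1 form the pore, BCL2, BCL-XL (from Bcl2l1) and MCL1 hold them back, and the BH3-only proteins BIM (Bcl2l11), BID and NOXA (Pmaip1) tip the balance towards opening. Death receptors start another route through caspase-8, which c-FLIP (Cflar) blocks and the ubiquitin ligase cIAP2 (Birc3) restrains. In macrophages TLR4 activates NF-kB, a transcription factor whose known targets include several survival genes.

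Levels are log2 of the processed intensity minus the 75th percentile of that array, so 0 stands for that percentile. Each array had 58.7% to 65.4% of its spots well above background, and 75th percentiles spanned 189 to 627 intensity units. The number of arrays limits the precision. The lowest values, 189 and 251, were both of fld LPS arrays. Each group had a scan of its own, so an effect of the scan, or of a slide scanned in it, and one of the group cannot be told apart. On 3 of the 4 Lpin1 probes, fld arrays 1 to 3 lay below every control array while fld array 4 lay within or above the control range in both treatments (on one such probe untreated fld arrays 1 to 3 reached at most -6.37 and array 4 was at -1.94, where untreated controls spanned -3.27 to -2.93). For the 10 genes, results that change without the fld arrays numbered 4 are given with that value. Calls of other genes lost without both included Fbxw7 (LPS in fld), Bcl2a1b and Ripk3 (genotypes without LPS) and Trp53 (genotypes with LPS). All 10 macrophage markers were well above background on every array, and so were all 9 B cell markers, save Cr2 on 2 fld LPS arrays. The summed level of the B cell list (in units of the 75th percentile) spanned 269.8 to 408 in fld LPS, 356 to 469.8 in untreated fld, 358 to 401 in control LPS and 348 to 553 in untreated control arrays, so the groups overlapped. This sum adds unlogged levels, so it mostly follows Ighm (mean log2 level 8.34 in untreated control, against 5.75 for Cd79b, the next brightest). Fewer cells of a type and less RNA per cell cannot be told apart in such bulk samples.

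In fld cells 5 of 10 passed the test, 2 higher and 3 lower, where 40.1% of all features passed (21.9% higher and 18.2% lower). In control cells 3 of 10 passed, 2 higher and 1 lower, where 29.9% of all features passed (14.8% higher and 15.2% lower). Cflar and Birc3 were the genes that rose and Pmaip1 the gene that fell in both genotypes, and Bid and Mcl1 fell by smaller amounts in fld. The median change of the 10 genes was -0.17 in fld and -0.09 in control, against 0.06 and 0.03 over all features. The test was limma's moderated test with 1 mean per group over the 16 arrays, two-sided, with Benjamini-Hochberg adjustment over all features and an adjusted p under 0.05. Whether arrays of a group came from separate mice is implied by the design text but not tied to the arrays, and otherwise the p-values measure technical spread only.

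**Figure D1:**
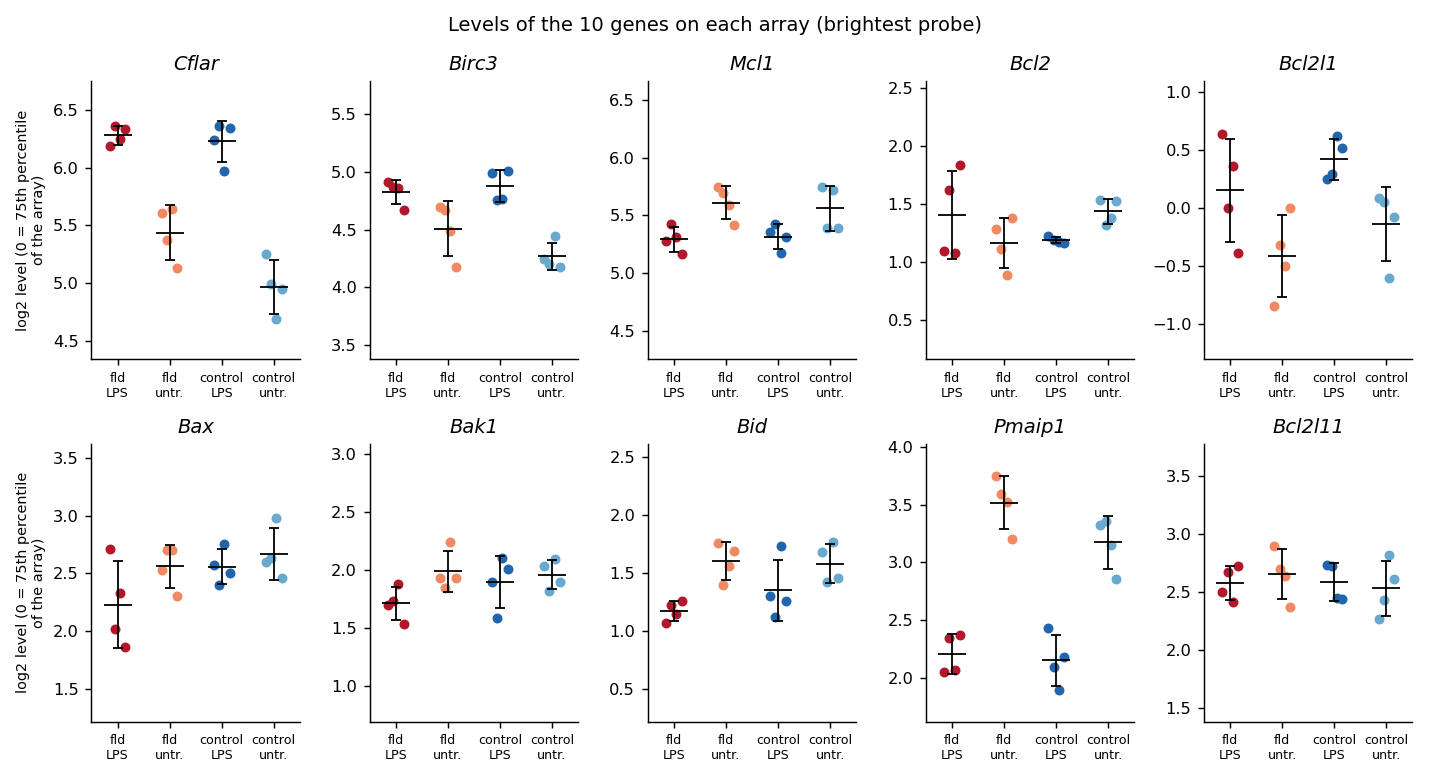
Log2 level (y axis, 0 is the 75th percentile of the array) of the 10 genes on each of the 16 arrays, read by the brightest probe. Points are arrays, bars the mean ± SD of 4, and every panel spans the same range of log2 units. Cflar stands higher and Pmaip1 lower with LPS in both genotypes, with no overlap between treated and untreated arrays.

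Cflar encodes c-FLIP, a relative of caspase-8 without protease activity that keeps death receptors from activating it. On its brightest probe (gene 12633, chromosome 1, 59009837 to 59009896 by the array files, whose build the sources used here do not give) the level was 6.18, 6.36, 6.24 and 6.33 on fld LPS arrays and 5.60, 5.38, 5.64 and 5.13 on untreated fld arrays. In control cells it was 6.23, 6.36, 5.97 and 6.34 with LPS and 5.25, 4.99, 4.69 and 4.95 without. Treated and untreated arrays did not overlap in either genotype, which was so for 37.2% of all features in fld and 32.7% in control. LPS raised Cflar by 0.84 ± 0.14 in fld (log2, SE; 1.79-fold, limma adjusted p = 0.000324) and by 1.26 ± 0.14 in control (2.39-fold, adjusted p = 1.12e-05). Untreated levels averaged 5.44 ± 0.24 in fld and 4.97 ± 0.23 in control, and LPS levels 6.28 ± 0.08 in fld and 6.23 ± 0.18 in control (SD, n = 4 each). Neither the difference of the rises (-0.42, 95% interval -0.84 to 0.0033, adjusted p = 0.53) nor that of the untreated levels (0.47, adjusted p = 0.066) passed the test. Leaving out untreated control array 1 (0.56, adjusted p = 0.034), untreated fld array 4 (0.57, adjusted p = 0.041) or control LPS array 3 (0.47, adjusted p = 0.049) brought the untreated difference past the threshold, and so did leaving out both fld arrays numbered 4 (0.57, adjusted p = 0.028).

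Cflar had 6 probes, and all 6 rose in both genotypes, by 0.62 to 1.40 in fld and by 0.66 to 1.87 in control (limma over all 25533 kept probes, of which 38.8% and 30.5% passed). Both probes that the files assign to transcript variant 2 (58982319 to 58983343 and 58983653 to 58983712) rose most, by 1.38 and 1.40 in fld and by 1.77 and 1.87 in control. The probes of variant 1 and of a CASH alpha mRNA (59005361 to 59005420 and 59005341 to 59005405) rose by 0.97 and 1.03 in fld and by 1.26 and 1.28 in control, close to the brightest probe. A probe of an unclassified RIKEN clone that RefSeq lists under Cflar (58968428 to 58968487) rose least, by 0.62 in fld and 0.66 in control. The difference between 2 probes of a gene on the same array is not changed by dividing that array by a single value. Its change with LPS was therefore tested for all 13 pairs of a brightest and another probe, by exact permutation within genotype (two-sided, 4900 labellings, adjusted over the 13). These pairs were examined after the probes had been seen to disagree. Against the brightest probe, the variant 2 probes gained 0.54 and 0.56 with LPS in fld and 0.52 and 0.61 in control (exact p = 0.000408, the smallest that 4900 labellings can give; adjusted p = 0.0013), with no overlap of treated and untreated arrays in either genotype. The RIKEN clone probe went the other way, by -0.22 in fld and -0.59 in control (adjusted exact p = 0.0053). The variant 1 probe gained 0.13 in fld and 0.01 in control (adjusted exact p = 0.42), and the CASH alpha probe 0.19 and 0.03 (adjusted exact p = 0.30).

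Birc3 encodes cIAP2, a ubiquitin ligase of TNF receptor complexes. Its brightest probe (gene 11796, chromosome 9, 7872768 to 7872827) read 4.91, 4.87, 4.86 and 4.67 in fld LPS against 4.70, 4.67, 4.48 and 4.18 in untreated fld, so 1 LPS array lay within the untreated range. In control cells it read 4.99, 4.75, 4.77 and 5.01 with LPS against 4.24, 4.21, 4.44 and 4.18 without, with no overlap. The rise was 0.32 ± 0.12 in fld (log2, SE; 1.25-fold, limma adjusted p = 0.049) and 0.61 ± 0.12 in control (1.53-fold, adjusted p = 0.0014), and the difference of the rises did not pass (-0.29, adjusted p = 0.64). The control result passed in all 28 alternative settings. The fld result passed in 9 of 28 and in 4 of the 16 that leave out an array (adjusted p up to 0.15, at 0.21, without untreated fld array 4), and it was 0.26 (adjusted p = 0.093) without both fld arrays numbered 4 and 0.07 (adjusted p = 0.74) with arrays scaled to their median. A second, dimmer probe (7880057 to 7880116) gave 0.44 in fld (adjusted p = 0.017) and 0.21 in control (adjusted p = 0.25), the other order of the genotypes. The difference between the probes did not pass the pair test (0.12 in fld and -0.40 in control, adjusted exact p = 0.29).

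RefSeq promoter windows of 250 bases before to 50 bases after a transcription start (GRCm38.p6) were listed for 9 of the 10 genes, 12 windows in all. The windows of Cflar (chr1:58711241-58711540, plus strand) and Birc3 (chr9:7873121-7873420, minus strand) are shown because these genes rose with LPS in both genotypes, and a window of Bcl2l1 (chr2:152830668-152830967, minus strand) because it holds the only NF-kB motif found, in capitals. Each runs 5′ to 3′ along the gene.
Cflar: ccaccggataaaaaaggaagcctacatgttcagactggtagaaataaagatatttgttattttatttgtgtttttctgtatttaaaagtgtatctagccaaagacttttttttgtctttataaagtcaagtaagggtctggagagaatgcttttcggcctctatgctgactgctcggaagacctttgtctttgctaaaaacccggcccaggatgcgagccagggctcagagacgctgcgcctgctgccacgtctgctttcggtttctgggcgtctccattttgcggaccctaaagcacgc
Birc3: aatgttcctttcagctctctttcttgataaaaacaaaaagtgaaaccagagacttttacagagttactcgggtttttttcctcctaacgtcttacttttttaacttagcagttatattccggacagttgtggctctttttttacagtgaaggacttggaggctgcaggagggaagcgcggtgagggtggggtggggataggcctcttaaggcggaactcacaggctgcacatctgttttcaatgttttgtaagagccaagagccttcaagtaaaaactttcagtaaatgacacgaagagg
Bcl2l1: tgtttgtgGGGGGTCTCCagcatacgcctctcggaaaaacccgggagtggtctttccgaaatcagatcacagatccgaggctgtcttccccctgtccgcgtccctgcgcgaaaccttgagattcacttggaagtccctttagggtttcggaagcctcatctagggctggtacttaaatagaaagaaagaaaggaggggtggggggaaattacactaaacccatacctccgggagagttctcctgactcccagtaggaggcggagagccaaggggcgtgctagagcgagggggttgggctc
Both strands were searched for the 10-letter NF-kB consensus motif, the AP-1 motif TGANTCA, the cyclic AMP response element TGACGTCA and the E-box CACGTG. The NF-kB motif was in 1 of the 12 windows, at position -242 of Bcl2l1, and in 4.51% of all 32851 RefSeq windows. AP-1 and the cyclic AMP element were in none of the 12, against 7.81% and 1.79% of all, and the E-box was in the window of Bax (2 matches), against 7.15% of all. A match is a run of letters only, and its absence concerns only these 300 bases.

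Of Mcl1, Bcl2 and Bcl2l1, the survival genes of the BCL2 family among the 10, none passed the test for a rise on its brightest probe. Mcl1 encodes a short-lived inhibitor of BAK1 and BAX that neutrophils depend on. It stood at 5.28, 5.43, 5.31 and 5.16 in fld LPS against 5.74, 5.70, 5.59 and 5.42 in untreated fld (gene 17210, chromosome 3, 95536882 to 95536941). In control cells it stood at 5.36, 5.42, 5.18 and 5.31 with LPS against 5.74, 5.39, 5.72 and 5.39 without. The groups overlapped in both genotypes. The change was -0.32 ± 0.11 in fld (SE, limma adjusted p = 0.036) and -0.24 ± 0.11 in control (adjusted p = 0.12). The fld result was lost when untreated fld array 1, 2 or 3 or fld LPS array 1, 3 or 4 was left out (-0.32 to -0.27, adjusted p 0.053 to 0.097), and the control change passed with quantile normalization (-0.45, adjusted p = 0.0039). The second Mcl1 probe (95535570 to 95535629) changed by -0.02 in fld (adjusted p = 0.91) and 0.11 in control (adjusted p = 0.51). Against the brightest probe it gained 0.30 in fld and 0.35 in control, with no overlap of treated and untreated arrays (exact p = 0.000408, adjusted p = 0.0013). Dividing an array by a single value cannot change this difference, while quantile normalization can.

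Bcl2 is the founder of the family and a survival protein of lymphocytes above all. Its brightest probe, which the files assign to transcript variant 2 (gene 12043, chromosome 1, 106612249 to 106612308), stood at 1.10, 1.62, 1.08 and 1.83 in fld LPS against 1.28, 1.11, 0.89 and 1.38 in untreated fld. Control cells gave 1.22, 1.19, 1.17 and 1.17 with LPS against 1.53, 1.32, 1.38 and 1.53 without. Treated control arrays all lay below untreated ones, while in fld the groups overlapped, and neither change passed (0.24 in fld, adjusted p = 0.23; -0.25 in control, adjusted p = 0.26). The probe of variant 1 (106438098 to 106438157), the mean of 10 spots on each array, fell by 0.41 ± 0.12 in fld (SE, limma over all probes, adjusted p = 0.019) and by 0.48 ± 0.12 in control (adjusted p = 0.0084). Its levels were -0.94, -0.51, -0.78 and -0.38 in fld LPS against -0.14, -0.14, -0.46 and -0.26 in untreated fld, and -0.39, -0.46, -0.39 and -0.22 in control LPS against -0.02, 0.11, 0.21 and 0.17 in untreated control. Relative to the variant 2 probe it changed by -0.65 in fld and -0.23 in control (exact p = 0.000816 over both genotypes, adjusted p = 0.0021). In this difference treated and untreated arrays did not overlap in fld, but overlapped in control. The remaining Bcl2 probe, of a RIKEN clone, gave -0.02 in fld and -0.33 in control, neither past the test. B cell markers had a median LPS change of -0.18 in fld and -0.32 in control. In each genotype 2 of 9 were called lower, Cr2 (-2.02 in fld and -0.85 in control) and Cd79b (-0.60 in both). Over all features 18.2% were called lower in fld and 15.2% in control. Their part in the Bcl2 values was not tested.

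Bcl2l1, the gene of BCL-XL, lay near the 75th percentile, with levels of 0.64, -0.00, 0.36 and -0.39 in fld LPS against -0.85, -0.32, -0.50 and -0.00 in untreated fld, and of 0.25, 0.29, 0.62 and 0.51 in control LPS against 0.08, 0.05, -0.61 and -0.08 in untreated control (gene 12048, chromosome 2, 152521752 to 152521811). The groups were apart in control and overlapped in fld. Its changes of 0.57 ± 0.23 in fld (SE, limma adjusted p = 0.057) and 0.56 ± 0.23 in control (adjusted p = 0.077) did not pass. The result in fld passed without fld LPS array 4 (0.75, adjusted p = 0.015), without untreated fld array 4 (0.71, adjusted p = 0.030), without both (0.89, adjusted p = 0.0070) and without untreated control array 3 (0.57, adjusted p = 0.044), and that in control without fld LPS array 4 (0.56, adjusted p = 0.042) and without both fld arrays numbered 4 (0.56, adjusted p = 0.031). Averaging its 3 probes gave 0.70 in fld (adjusted p = 0.0077) and 0.56 in control (adjusted p = 0.030). Probe 3 (152570851 to 152570910) rose by 0.63 in fld (adjusted p = 0.0038) and 0.61 in control (adjusted p = 0.0050), and probe 2 (152570306 to 152570365) by 0.90 in fld (adjusted p = 0.0086), with 0.51 in control (adjusted p = 0.12). Neither dimmer probe passed the pair test (adjusted exact p = 0.34 and 0.68).

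**Figure D2:**
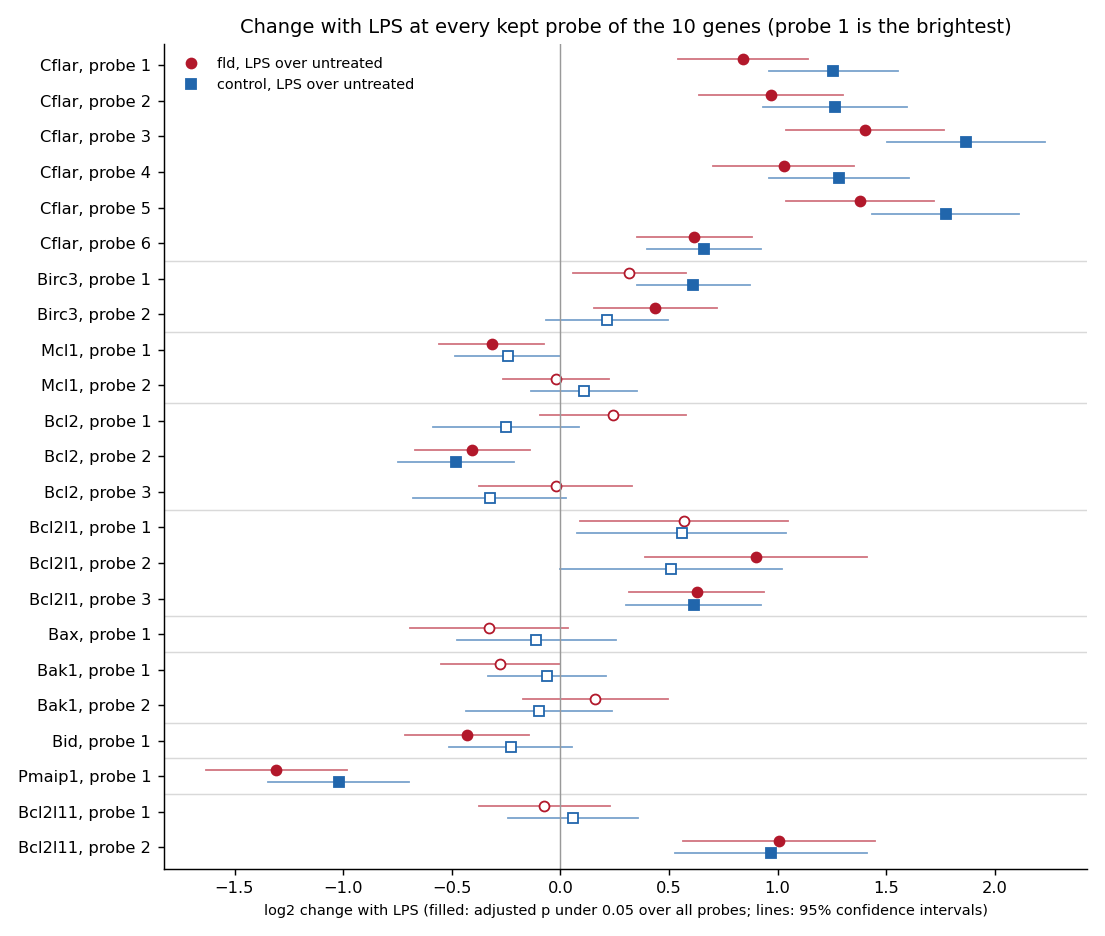
Log2 change with LPS (x axis) at each of the 23 kept probes of the 10 genes, with fld as red circles above control as blue squares, 95% confidence intervals as lines and filled symbols for an adjusted p under 0.05 over all probes. All 6 Cflar probes lie right of 0. Probe 2 of Bcl2l11 and of Mcl1 lies right of probe 1 of the same gene, and probe 2 of Bcl2 lies left of it. The intervals of the Mcl1 probes overlap in both genotypes, and those of Bcl2 probes 1 and 2 overlap in control.

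Of the 3 BH3-only genes among the 10, Pmaip1 had the largest LPS changes on the brightest probe. It encodes NOXA, which binds MCL1 and promotes its degradation. Its probe (gene 58801, chromosome 18) read 2.05, 2.34, 2.07 and 2.37 in fld LPS against 3.75, 3.59, 3.52 and 3.20 in untreated fld, and 2.43, 2.10, 1.90 and 2.19 in control LPS against 3.33, 3.36, 3.15 and 2.86 in untreated control. Every LPS array lay below every untreated array. Pmaip1 fell by 1.31 ± 0.15 in fld (log2, SE; 0.404-fold, limma adjusted p = 1.6e-05) and by 1.02 ± 0.15 in control (0.493-fold, adjusted p = 0.00015), and passed in all 28 alternative settings in both genotypes. The untreated level was 0.34 higher in fld than in control (adjusted p = 0.24), the LPS level 0.06 higher (adjusted p = 0.87), and the falls differed by -0.29 (adjusted p = 0.73).

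Bid encodes the BH3-only protein that caspase-8 cleaves, which links death receptors to mitochondria. Its level (gene 12122, chromosome 6, 120918747 to 120918806) was 1.07, 1.22, 1.15 and 1.26 in fld LPS against 1.77, 1.40, 1.57 and 1.70 in untreated fld, without overlap. In control cells it was 1.30, 1.12, 1.73 and 1.26 with LPS against 1.68, 1.42, 1.77 and 1.46 without, where LPS array 3 lay among the untreated arrays. Bid fell by 0.43 ± 0.13 in fld (SE, limma adjusted p = 0.019), with -0.23 ± 0.13 in control (adjusted p = 0.21). The fld result missed the threshold without untreated fld array 1 (-0.38, adjusted p = 0.055) and without both fld arrays numbered 4 (-0.43, adjusted p = 0.055), and the control result passed without control LPS array 3 (-0.36, adjusted p = 0.035). The difference of the changes was -0.20 (adjusted p = 0.79).

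Bcl2l11 encodes BIM, a BH3-only protein that binds all survival proteins of the family. On its brightest probe (gene 12125, chromosome 2, 127903168 to 127903227) it read 2.50, 2.68, 2.41 and 2.72 in fld LPS against 2.90, 2.70, 2.64 and 2.37 in untreated fld, and 2.74, 2.73, 2.45 and 2.44 in control LPS against 2.26, 2.44, 2.82 and 2.61 in untreated control. Groups overlapped throughout, with changes of -0.07 in fld (95% interval -0.37 to 0.23) and 0.06 in control (-0.24 to 0.36). A second probe of the same transcript, placed by the files from 127888010 to 127899105 and so across an interval much longer than a probe, read -1.12, -0.64, -1.32 and -0.52 in fld LPS against -1.60, -2.27, -1.54 and -2.21 in untreated fld. In control it read -1.02, -1.18, -1.51 and -1.54 with LPS against -2.09, -2.31, -2.37 and -2.36 without. That probe rose by 1.01 ± 0.21 in fld (SE, 2.01-fold, limma over all probes, adjusted p = 0.0016) and by 0.97 ± 0.21 in control (1.96-fold, adjusted p = 0.0024), with no overlap in either. Relative to the brightest probe it gained 1.08 in fld and 0.91 in control (exact p = 0.000408, adjusted p = 0.0013), the largest of the 13 pair changes. Averaged over its kept probes Bcl2l11 would be called higher, by 0.47 in fld (adjusted p = 0.026) and 0.51 in control (adjusted p = 0.020), so its direction depends on the probe. Its remaining probe was not tested, since only 7 of 16 arrays had it well above background.

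Neither pore-former moved with LPS past the test. Bax (gene 12028, chromosome 7, 41641827 to 41641982) stood at 2.71, 2.02, 2.33 and 1.87 in fld LPS against 2.53, 2.70, 2.70 and 2.31 in untreated fld, and at 2.58, 2.40, 2.76 and 2.50 in control LPS against 2.60, 2.63, 2.98 and 2.46 in untreated control. Its change was -0.33 in fld (95% interval -0.69 to 0.04, limma adjusted p = 0.13) and -0.11 in control (-0.48 to 0.25, adjusted p = 0.68). Without fld LPS array 1, its highest, the change in fld passed (-0.49, adjusted p = 0.024). Bak1 (gene 12018, chromosome 17, 25204734 to 25204793) stood at 1.70, 1.73, 1.88 and 1.54 in fld LPS against 1.93, 1.85, 2.25 and 1.94 in untreated fld, and at 1.90, 1.59, 2.11 and 2.01 in control LPS against 2.03, 1.82, 2.09 and 1.89 in untreated control. Its change was -0.28 in fld (adjusted p = 0.094) and -0.06 in control (adjusted p = 0.76), and in fld it passed with arrays scaled to their median (-0.52, adjusted p = 0.032). Its second probe gave 0.16 in fld and -0.10 in control, also not past the test.

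Between genotypes none of the 10 genes passed limma's test, with or without LPS. At an unadjusted p under 0.05 there were 0 of 10 with LPS, against 26.7% of all features, and 2 of 10 without, Cflar and Pmaip1, against 18.6%. At the adjusted threshold, with LPS, 17.1% of all features passed and 16.2% were higher in fld. Without LPS 5.26% passed and 5.03% were higher in fld. On the brightest probe the genotypes overlapped for all 10 genes in both comparisons, while they did not overlap for 19.9% of all features with LPS and 15.3% without. The 95% intervals bound the LPS-treated differences between -0.75 and 0.21 for Bcl2l1, the widest, and between -0.26 and 0.22 for Mcl1, the narrowest. The largest untreated differences were Cflar at 0.47, Pmaip1 at 0.34 and Bcl2l1 at -0.28, and the largest with LPS were Bax at -0.33, Bcl2l1 at -0.27 and Bcl2 at 0.22. At probe level, where 14.0% of probes passed with LPS and 3.76% without, only probe 3 of Bcl2l1 passed, at -2.32, -2.53, -2.58 and -2.45 in fld LPS against -2.91, -3.06, -3.05 and -2.96 in control LPS (0.52, adjusted p = 0.025). The brightest probe of that gene gave -0.27 in the same comparison (adjusted p = 0.51).

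**Figure D3:**
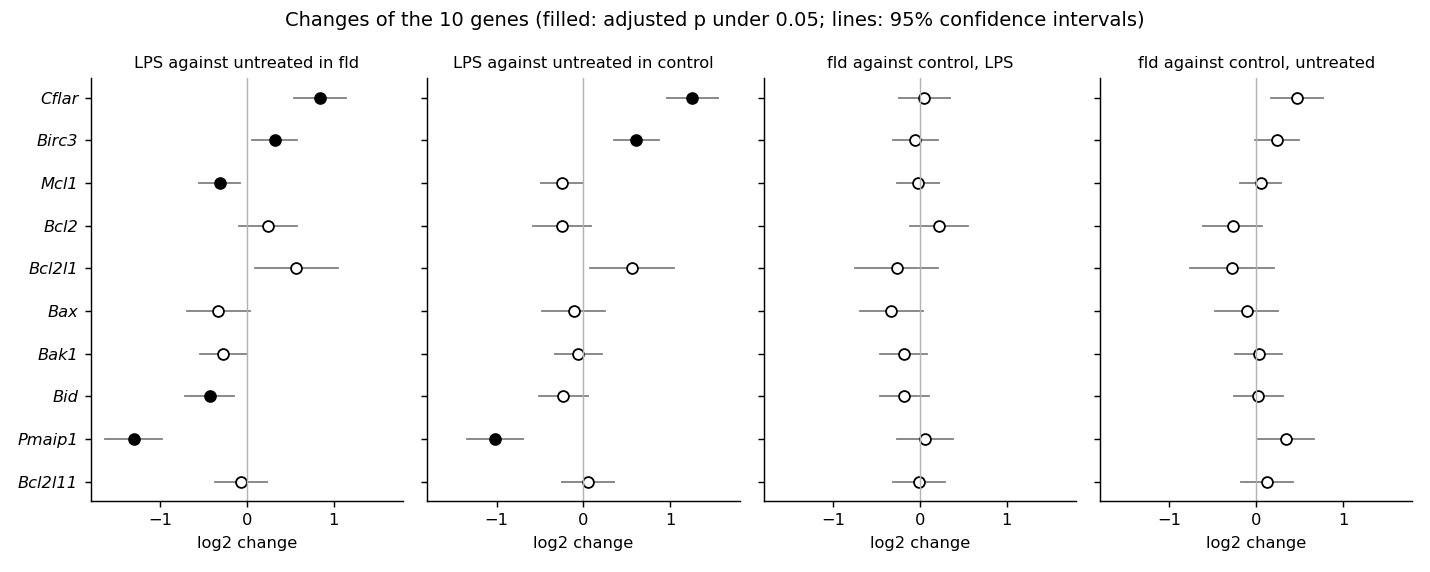
Log2 change (x axis) of each of the 10 genes with LPS in fld and in control, and of fld against control with and without LPS, with 95% confidence intervals as lines and filled points for an adjusted p under 0.05. Filled points number 5 and 3 in the LPS panels and 0 in both genotype panels.

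The genotype comparison with LPS depended on how arrays were scaled. Dividing each array by its median, as the authors' deposited value table does, moved every feature by -0.40 in that comparison. The 75th percentile was 6.58 to 8.87 times the median on fld LPS arrays and 9.94 to 11.8 times on control LPS arrays. On that scale 7 of the 10 genes were called lower in fld LPS cells (Bax -0.73, Bcl2l1 -0.67, Bak1 -0.59, Bid -0.58, Birc3 -0.45, Mcl1 -0.42 and Bcl2l11 -0.41, adjusted p 0.015 to 0.048), but so were 6626 of the 17466 features, and the median of all features was itself -0.38. Relative to the median of all features the 10 genes lay at the same place on either scale, with a median of -0.04 against 0.02 on the 75th percentile scale. The LPS changes in fld moved by -0.24 under the same scaling, and Cflar (0.60), Pmaip1 (-1.55), Bid (-0.67) and Mcl1 (-0.56) still passed.

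**Figure D4:**
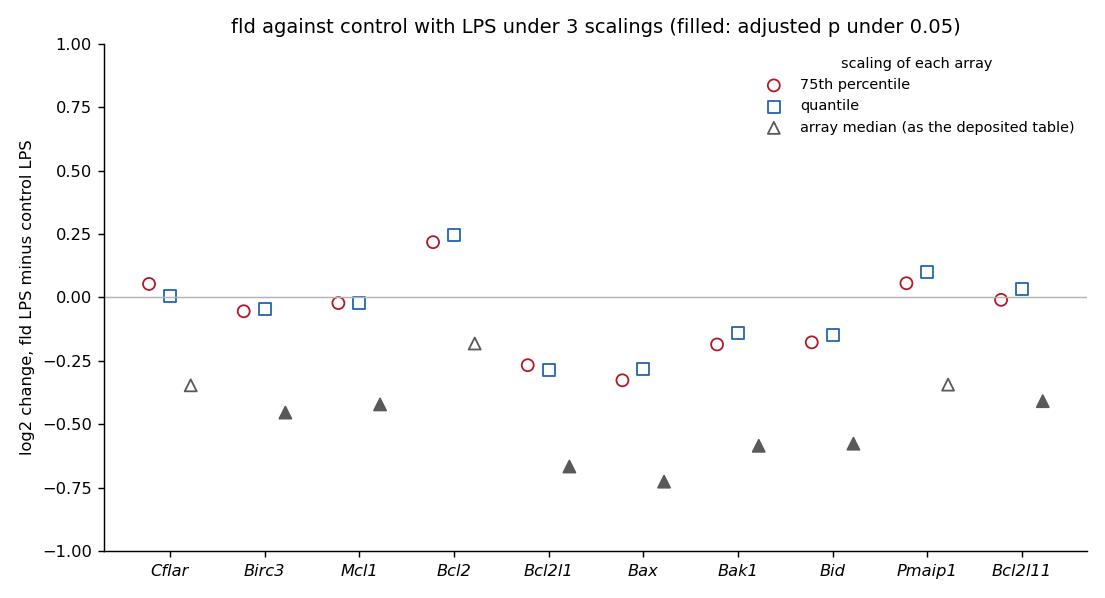
Log2 difference of fld LPS from control LPS (y axis) for the 10 genes with arrays scaled to the 75th percentile, by quantiles, or to the median, with filled symbols for an adjusted p under 0.05. Only the median scaling puts genes past the threshold, 7 of them, and it moves all features by the same -0.40.

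The difference of the LPS responses between genotypes, tested as an interaction, passed for 0 of the 10 genes and for 0% of all features by limma, while at an unadjusted p under 0.05 it held for 1 of the 10, Bcl2, and for 1649 of 17466 features. The largest were Bcl2 at 0.49 (95% interval 0.02 to 0.97, adjusted p = 0.50), Cflar at -0.42 and Birc3 at -0.29, and for Bcl2l1 the interval ran from -0.67 to 0.69.

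Genes of the other apoptosis lists moved with LPS in both directions. Over all features 21.9% were called higher and 18.2% lower in fld, and 14.8% and 15.2% in control. The counts of each list below stand beside these shares. No list was tested as a set, and a count near these shares is no result about a list. Of the other survival genes of the family 3 of 6 could be tested. In fld 1 of 3 rose and in control 3 of 3, at list medians of 0.50 and 1.40. Bcl2l2, the gene of BCL-W, rose by 0.56 in fld (adjusted p = 0.038) and 0.62 in control (adjusted p = 0.030). Bcl2a1b and Bcl2a1c, inducible survival genes of leukocytes (A1), gave 0.50 and 0.36 in fld (limma adjusted p = 0.059 and 0.23) and rose by 1.40 and 1.54 in control (adjusted p = 0.00011 and 0.00019). Both were higher in fld than in control without LPS, by 0.76 and 0.87 (adjusted p = 0.041 and 0.047), and the difference of their LPS responses was -0.90 and -1.18 (adjusted p = 0.33 and 0.27). These A1 genes are nearly identical copies, so a probe may read several of them and the split between them is uncertain. A second Bcl2l2 probe gave 0.20 in fld and 0.17 in control, neither past the test. The Bcl2l2 calls held in 12 of 16 settings with an array left out in fld and in 10 of 16 in control, and the untreated genotype calls of the A1 genes in 6 and 5 of 16.

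Of 12 other BH3-only and death genes 9 could be tested. In fld 4 fell and none rose, at a list median of -0.51, and in control 2 fell and 1 rose, at -0.13. Bnip3l, a mitochondrial receptor for autophagy, fell by 0.83 in fld (adjusted p = 0.0016) and 1.04 in control (adjusted p = 0.00032). Bnip3, its relative, fell by 0.55 in fld (adjusted p = 0.015) and 0.56 in control (adjusted p = 0.017). Bmf and Bbc3, the genes of the BH3-only proteins BMF and PUMA, fell in fld by 0.96 and 0.71 (adjusted p = 0.013 and 0.041), with -0.08 and -0.03 in control, and the difference of the responses did not pass (-0.88 and -0.69, adjusted p = 0.49 and 0.60). The Bbc3 call held in 20 of 28 alternatives and in 10 of the 16 that leave out an array. A second Bmf probe gave 0.47 in fld (adjusted p = 0.10), so the fall rests on its brightest probe. Bik, a BH3-only gene, gave 0.34 in fld (adjusted p = 0.50) and rose by 1.25 in control (adjusted p = 0.023), and was well above background on only 2 of 4 untreated arrays there.

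Among the inhibitors of apoptosis and their antagonists, 3 of 10 rose and 2 fell in each genotype. Xiap, the direct caspase inhibitor, rose by 0.97 in fld and 0.97 in control (adjusted p = 9.9e-05 and 0.00010), and its second probe by 0.39 and 0.45. Naip2, a sensor subunit of the NLRC4 inflammasome, rose by 1.34 in fld and 1.39 in control (adjusted p = 8.5e-06 and 7.1e-06), and Naip5 by 0.68 and 0.60 (adjusted p = 0.0080 and 0.020). The Naip genes are close paralogs, and their probes may share transcripts. Htra2, whose protease blocks inhibitors of apoptosis once released from mitochondria, fell by 1.41 in fld and 1.46 in control (adjusted p = 4.0e-06 and 3.3e-06). Birc2, the neighbour of Birc3 that encodes cIAP1, fell by 0.55 in fld (adjusted p = 0.0021), with -0.18 in control, but its second probe gave 0.21 in fld (adjusted p = 0.27). Naip1 gave -0.63 in fld (adjusted p = 0.11) and fell by 1.18 in control (adjusted p = 0.0082).

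The largest rises of these lists were among the death receptor genes. In fld 4 of 14 rose and 3 fell, and in control 4 rose and 2 fell. Tnfaip3, the gene of A20, which limits NF-kB and TNF signalling, rose by 2.43 in fld and 2.79 in control (adjusted p = 2.7e-08 and 7.2e-09). Tnfrsf1b, the TNF receptor that lacks a death domain, rose by 2.12 and 2.10, and Traf1, an adaptor that works with the cIAP proteins, by 1.68 and 2.39. Ripk3, the kinase of necroptosis, fell by 1.15 in fld and 1.19 in control (adjusted p = 1.4e-05 and 1.2e-05). Cyld, a deubiquitinase of the TNF receptor complex, fell by 0.67 and 0.33, and Mlkl, the effector of necroptosis, fell in fld by 0.91 (adjusted p = 0.0075), with -0.47 in control (adjusted p = 0.15). Between genotypes Ripk3 was higher in fld by 0.52 with LPS (adjusted p = 0.012) and 0.48 without (adjusted p = 0.046). With arrays scaled to their median the Ripk3 difference with LPS was 0.12 (adjusted p = 0.58). Tnfrsf10b, the TRAIL receptor, was higher by 1.58 with LPS (adjusted p = 0.00063) on 1 of its 2 probes, the other giving 0.44 (adjusted p = 0.53). Fas and Traf1 were higher without LPS by 0.61 and 0.82 (adjusted p = 0.030 and 0.047), and of the 16 settings that leave out an array the untreated calls of Fas, Traf1 and Ripk3 held in 11, 5 and 4.

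In the list of the apoptosome, executioner caspases and substrates, 1 of 12 rose and 5 fell in fld, and 1 rose and 4 fell in control. Casp2, an initiator caspase, fell by 1.02 in fld and 0.67 in control (limma adjusted p = 2.8e-06 and 0.00012). Parp1, a DNA repair enzyme that caspases cleave, fell by 0.40 in fld (adjusted p = 0.032) and 0.51 in control (adjusted p = 0.010). A second Parp1 probe gave -0.11 in fld (limma over all probes, adjusted p = 0.45) and -0.41 in control (adjusted p = 0.0093). The genes that rose were Casp6 in fld (0.51, adjusted p = 0.037) and Cycs, the gene of cytochrome c, in control (0.38, adjusted p = 0.040), and they passed in 10 and 11 of the 16 settings that leave out an array. The other 2 Cycs probes each gave 0.22 in control, not past the test. Aifm1, the apoptosis-inducing factor, fell with LPS by 0.62 in fld (adjusted p = 0.00051), with -0.28 in control (adjusted p = 0.069), and its LPS level differed by -0.39 between fld and control (adjusted p = 0.021).

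Of 10 genes around p53, FOXO and MCL1 turnover, 1 rose and 1 fell in fld, and 2 rose and 1 fell in control. Trib1, a pseudokinase that steers ubiquitin ligases, rose by 1.83 in fld and 1.95 in control (adjusted p = 5.6e-06 and 3.7e-06), and Fbxw7, a ubiquitin ligase subunit that can target MCL1, fell by 0.34 and 0.47 (adjusted p = 0.016 and 0.0024). The Fbxw7 call in fld was lost without both fld arrays numbered 4. Cdkn1a, the p53 target p21, gave 0.19 in fld (adjusted p = 0.50) and rose by 0.96 in control (adjusted p = 0.0033). Without LPS it was 0.89 higher in fld than in control (adjusted p = 0.026). That call held in 22 of 28 alternatives and in 12 of the 16 that leave out an array. Trp53 was 0.51 higher in fld than in control with LPS (adjusted p = 0.049), a call that held in 4 of the 16 settings that leave out an array, and with arrays scaled to their median it was 0.11 (adjusted p = 0.48). Its second probe gave 0.03.

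**Figure D5:**
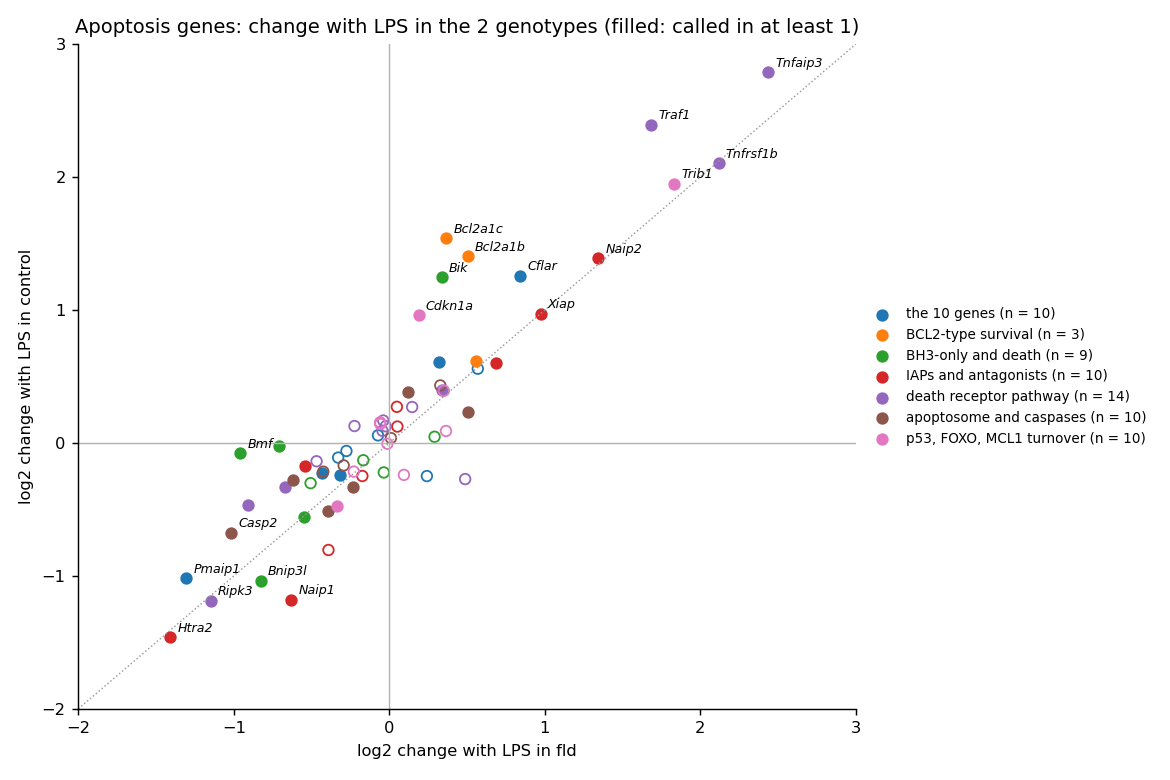
Log2 change with LPS in fld (x axis) and in control (y axis) for the 10 genes and 6 other lists of apoptosis genes, 1 point per gene reported, filled where it passed the test in at least 1 genotype, with the diagonal dotted. Tnfaip3 lies highest and Htra2 lowest of the genes drawn in both genotypes.

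The genes whose profiles over the 16 arrays lay closest to each of 4 genes, by the root mean square difference after centring and among 14051 features with a symbol, were as follows. Nearest to Cflar were Rassf1 (0.15), Tlnrd1 (0.15) and Ptpn2 (0.16), where the median distance of all features was 0.64. Nearest to Pmaip1 were Anxa4 (0.16), Gdap10 (0.17) and Utrn (0.19), with a median of 0.70. For Birc3 they were Erbin (0.08), Relb (0.10) and Rab5a (0.10), with a median of 0.44, and for Bid they were Arpc5l (0.09), Pick1 (0.11) and Lage3 (0.12), with a median of 0.40.

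Markers of cell types were read beside these results. With LPS, 21.9% of all features were called higher and 18.2% lower in fld, and 14.8% and 15.2% in control. A count near or under these shares is no result about a cell type. The summed level of 9 mast cell markers spanned 122 to 174 in fld LPS against 43.3 to 142 in untreated fld, and 164 to 228 in control LPS against 18.4 to 92.8 in untreated control, so the control groups did not overlap. Of these markers 1 of 9 was called in each genotype, Hdc, at 2.95 in fld and 3.62 in control, and the list medians were 0.55 and 0.85. The sums add unlogged levels, so the brightest genes weigh most. Mean log2 levels of Hdc went from 3.05 to 5.99 in fld and from 2.81 to 6.43 in control. The summed level of the 9 neutrophil markers on the array spanned 26.8 to 38.8 in fld LPS against 9.96 to 15.1 in untreated fld, and 19.9 to 28.6 in control LPS against 9.62 to 10.9 in untreated control, with Elane and Cxcr2 well above background on no array. Of the 6 tested, 2 were called higher and 1 lower in each genotype: S100a8 changed by 4.49 in fld and 3.46 in control, and Mmp8 by -1.65 in fld and -2.88 in control. Macrophage markers had a median LPS change of -0.82 in fld, with 1 of 10 called higher and 4 lower, and of -0.50 in control, with 2 higher and 2 lower. Between genotypes with LPS, 4 of 9 T and NK cell, 3 of 6 neutrophil and 3 of 8 mesothelial and fibroblast markers were called higher in fld. So was 1 of 5 dendritic cell markers. Of the B cell markers 2 of 9 were called lower, and the macrophage median was -0.49 with none called. Over all features 16.2% were called higher and 0.899% lower. Without LPS, 1 of 9 T and NK cell markers was called higher and 1 of 9 B cell markers lower. Of 5 dendritic cell markers 1 was called higher and 1 lower there. Over all features 5.03% were called higher and 0.223% lower. The part of other cells in the changes of the 10 genes and in the genotype comparisons was not tested.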

How the data were processed

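Per the file headers, each deposited scanner file holds the processed intensity of 45018 spots (43379 not controls) read with Feature Extraction 9.5.1.1 (Agilent design 014868), subtracted for background and detrended by the authors. The deposited value table holds a ratio: each column, set against the scanner values, equals the processed intensity over that array's median, a step no header describes.

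Spots with an outlier flag were left out (0.208% of spot values), spots of a probe were averaged on the log2 scale, and a probe was kept (25533 of 41174) where some group had it well above background on its 4 arrays. The brightest probe stood for a gene, which gave 17466 features, 14070 with a symbol. The 5 comparisons used limma (version 3.58.1, R 4.3.3), and the script was tested on simulated data. Promoter windows and gene names came from RefSeq (GRCm38.p6). Tables and exact tests used Python 3.11.15 and scipy 1.17.1.

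Single-gene results of some list members are not reported here, though the counts of their list include them. The 10 genes, the other lists and the tests were chosen with earlier results of these data known. Beside the 10 genes, the text names up to 3 rises and 3 falls per list and comparison among called genes, and the 3 nearest profiles of 4 genes. Alternatives changed the background correction, scaling, dim-probe filter, probe summary, arrays left out, weights and replicate block.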

Additional observations from a re-analysis of the deposited data

Results flagged for a closer look

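A sample standing apart from the other 3 of its group by Dixon's criterion at the 95% level was found in 15 of 228 groups examined, where chance alone gives about 1 in 20. Among the 10 genes, Bcl2 probe 3 read -1.37 on untreated control array 2 (others -1.14 to -1.11) and -1.18 on control LPS array 2 (others -1.67 to -1.60). The dimmest Bcl2l11 probe read -3.61 on fld LPS array 3 (others -4.38 to -4.30). Cflar probe 6 read -0.85 on fld LPS array 4 (others -1.26 to -1.20) and -1.19 on control LPS array 4 (others -1.48 to -1.44). Birc3 probe 2 read -0.23 on untreated control array 2 (others 0.08 to 0.10).

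Of the other genes, 3 stood apart on fld LPS array 4: Cycs at 5.22 (others 4.88 to 4.93), Naip5 at 2.03 (2.82 to 2.91) and Ripk3 at 2.20 (2.55 to 2.59). On control LPS arrays they were Aifm1 at 1.33 (array 3, others 1.48 to 1.49), Bbc3 at 2.23 (array 3, others at least 2.94), Birc2 at 1.0 (array 4, others all at 1.17) and Naip2 at 4.53 (array 1, others 4.73 to 4.76). Untreated fld array 1 had Bcl2a1b at 6.10 (others 5.90 to 5.91), and untreated control array 3 had Htra2 at 5.34 (others 5.09 to 5.13).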

How the results depend on the processing

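Over 28 alternatives, 1332 of 1400 values of the 10 genes kept their side of the threshold and, where called, their direction. 29 were no longer called, 38 became called and 1 reversed: the LPS change of Bcl2l11 in fld, 0.47 averaged over probes. Members called with LPS in fld (5) were 3 with no filter on dim probes and 3 to 6 with an array left out, and in control (3) they were 5 averaged over probes and 3 to 4. Without LPS, fld against control called 918 features, against 37 with normexp, 526 with quantile normalization, 475 requiring every array above background, 2251 with array weights and 351 to 1652 with an array left out. Its members called (0) were 1 without both fld arrays numbered 4, 1 with array weights and 0 to 1. With LPS, fld against control called 2982 features and 0 members, against 8641 and 7 with median scaling or the deposited table, and 2150 to 3280 and 0 to 1 with an array left out. The shares of calls that were higher in that comparison were 94.7%, 74.3% with quantile normalization and 23.3% with median scaling. For LPS in fld they were 54.7%, 66.7% with normexp, 65.2% with no filter and 29.6% with median scaling. For fld against control without LPS they were 95.8%, and 85.3% with median scaling. The difference of the LPS responses (0 features) called 14 with quantile normalization, 7 with median scaling or the deposited table, 10 with array weights, 2 with a replicate block within genotype and 0 to 1 with an array left out. Same-numbered arrays correlated at 0.08 to 0.26 in control and -0.10 to 0.20 in fld. Arrays with different numbers correlated at -0.25 to 0.21 in control and -0.42 to 0.38 in fld. These values do not settle whether the numbers mark pairs. The labels do not say so, and the main test did not take them as pairs. With the replicate block the number of members called in fld was again 5, with Birc3 lost (0.32, adjusted p = 0.051) and Bak1 gained (-0.28, adjusted p = 0.041). Other causes were not tested. A block for the scan could not be run, since each group had a scan of its own.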
